A study of Mus musculus with 7 samples.

Results

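The genes described here are 36 genes of the endoplasmic reticulum (ER) chaperone system and the unfolded protein response, out of 45706 genes in the count table of a mouse kidney RNA sequencing series. They were chosen by name, with earlier results of these data known, and all 36 symbols matched a gene of the table. By role they are 11 genes of the HSP70 and HSP90 chaperone system and its partners, 6 protein disulfide isomerases, 2 lectin chaperones, 4 stress sensors and their transcription factor, 9 genes of ER-associated degradation and 4 genes of the translocon. The tested kidneys came from 4 male Slc7a9-/- mice, 6 months old, that took up 16 mg/kg of L-ergothioneine per day with their drinking water. They were set against kidneys of 3 untreated male Slc7a9-/- mice of the same age. Slc7a9 encodes the light chain of the cystine transporter of the kidney, and its loss causes cystinuria. L-ergothioneine is a sulfur-containing amino acid derivative with antioxidant properties that mammals obtain from food. Every mouse was Slc7a9-/- by its label and no wild-type kidney was analysed here, so no value compares diseased with healthy kidney. The labels state no strain background, duration of treatment, litter or hour of collection.

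The ER folds the proteins that a cell secretes or places in its membranes. Lumenal chaperones of the HSP70 and HSP90 families, disulfide isomerases and the lectins calnexin and calreticulin assist folding, and proteins that fail are drawn back through the ER membrane, ubiquitinated and degraded. When unfolded proteins accumulate, the membrane sensors IRE1, PERK and ATF6 start the unfolded protein response, in which spliced Xbp1 and cleaved ATF6 raise transcription of chaperone and degradation genes through the ER stress response element. In the kidney, tubule cells make large amounts of membrane transporters and secreted proteins, all of which pass through the ER.

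Libraries held 17296632 to 19791575 counts in ergothioneine kidneys and 14843899 to 17793544 counts in untreated kidneys, and 15399 genes were tested. Slc7a9 itself had 5.62 to 9.47 CPM (counts scaled to equal library size) in ergothioneine kidneys and 5.55 to 6.73 CPM in untreated kidneys, and since the labels do not say which exons were removed, these counts cannot check the genotype. Defining genes of the proximal tubule were high in every library, with Lrp2 at 7275 to 7936 CPM in ergothioneine kidneys and 7106 to 8858 CPM in untreated kidneys. Some libraries stood apart. Short non-coding RNAs took 1.83% to 2.79% of the counts in ergothioneine libraries and 2.46% in untreated library 3, but 0.427% and 0.570% in untreated libraries 1 and 2. Library names end in numbers, called library index numbers here. These ran from 14 to 23 in 3 ergothioneine libraries and 1 untreated library. In the others, 1 ergothioneine library and 2 untreated libraries, they ran from 44 to 50. The labels do not say whether the ranges were separate batches. Among the genes described here, ergothioneine library 3 lay closest to the untreated kidneys, as given below.

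The promoters of these genes are shown first, because several of them carry the element through which the response is known to act. The ER stress response element (ERSE) was searched as CCAAT, 9 bases, CCACG, the related ERSE-II as ATTGG, 1 base, CCACG, and the unfolded protein response element (UPRE) as TGACGTGG. All were searched on both strands from 250 bases before to 50 bases after the RefSeq start of each gene (build GRCm38.p6). Of the 36 genes 29 had a window in the RefSeq table. Exact ERSE matches stood in 9 of these 29 genes, ERSE-II in 2 and UPRE in 1, Txndc5. Of all 27025 genes with a window 0.137% held an ERSE, 0.0444% an ERSE-II and 0.714% a UPRE. No match in these genes overlapped another (0 of 13). The ERSE was first defined on promoters of genes of this kind, so its share here is a description of the set. The matches are printed below in motif orientation, 5′ to 3′, with the fixed parts of the motif in capitals.
Hspa5, ERSE, 65 bases before the start: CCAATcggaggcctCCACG
Hsp90b1, ERSE, 212 bases before the start: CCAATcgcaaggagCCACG
Hsp90b1, ERSE, 107 bases before the start: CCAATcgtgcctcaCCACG
Creld2, ERSE, 126 bases before the start: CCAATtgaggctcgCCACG
Syvn1, ERSE, 44 bases before the start: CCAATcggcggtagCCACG
Calr, ERSE, 162 bases before the start: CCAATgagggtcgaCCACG
Canx, ERSE, 145 bases before the start: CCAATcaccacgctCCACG
Dnajc3, ERSE, 105 bases before the start: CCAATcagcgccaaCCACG
Pdia6, ERSE, 98 bases before the start: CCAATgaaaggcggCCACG
Derl3, ERSE, 156 bases before the start: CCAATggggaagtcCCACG
Herpud1, ERSE-II, 52 bases before the start: ATTGGgCCACG
Dnajb11, ERSE-II, 7 bases after the start: ATTGGcCCACG

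Whole windows are printed for the 4 genes that passed the test between the groups and hold an ERSE or ERSE-II, and for Hspa5, the best-known target of the element, which was added to that rule. Each line runs 5′ to 3′ along the gene's own strand, and capitals mark the fixed parts of the motif. In the Creld2 window and in the second match of Hsp90b1 they read as CGTGG and ATTGG, since the motif lies on the other strand.
Herpud1, chr8:94386179-94386478, plus strand: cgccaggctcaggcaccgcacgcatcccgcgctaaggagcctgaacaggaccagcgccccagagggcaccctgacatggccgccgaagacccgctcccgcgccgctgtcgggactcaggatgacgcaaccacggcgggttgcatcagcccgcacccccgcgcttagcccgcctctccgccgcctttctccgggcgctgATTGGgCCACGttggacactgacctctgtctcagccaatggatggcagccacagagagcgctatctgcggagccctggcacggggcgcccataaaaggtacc
Creld2, chr15:88819396-88819695, plus strand: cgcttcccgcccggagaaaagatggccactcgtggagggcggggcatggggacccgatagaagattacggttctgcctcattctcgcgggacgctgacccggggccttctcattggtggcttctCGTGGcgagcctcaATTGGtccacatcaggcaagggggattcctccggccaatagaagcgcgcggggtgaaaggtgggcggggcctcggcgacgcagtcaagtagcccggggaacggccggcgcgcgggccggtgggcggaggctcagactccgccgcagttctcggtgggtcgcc
Syvn1, chr19:6046326-6046625, plus strand: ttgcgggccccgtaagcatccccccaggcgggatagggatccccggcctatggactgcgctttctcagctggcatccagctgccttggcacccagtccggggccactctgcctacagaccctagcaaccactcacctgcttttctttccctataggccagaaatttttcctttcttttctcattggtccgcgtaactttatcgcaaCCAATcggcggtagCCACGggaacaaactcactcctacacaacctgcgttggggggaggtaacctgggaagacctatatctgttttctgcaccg
Hsp90b1, chr10:86705395-86705694, minus strand: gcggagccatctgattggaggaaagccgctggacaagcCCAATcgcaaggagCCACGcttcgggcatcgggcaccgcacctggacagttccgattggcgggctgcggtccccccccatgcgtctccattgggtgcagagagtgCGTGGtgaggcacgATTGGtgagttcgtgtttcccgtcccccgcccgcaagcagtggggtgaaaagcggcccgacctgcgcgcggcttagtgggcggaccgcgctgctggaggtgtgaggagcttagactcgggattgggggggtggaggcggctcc
Hspa5, chr2:34771840-34772139, plus strand: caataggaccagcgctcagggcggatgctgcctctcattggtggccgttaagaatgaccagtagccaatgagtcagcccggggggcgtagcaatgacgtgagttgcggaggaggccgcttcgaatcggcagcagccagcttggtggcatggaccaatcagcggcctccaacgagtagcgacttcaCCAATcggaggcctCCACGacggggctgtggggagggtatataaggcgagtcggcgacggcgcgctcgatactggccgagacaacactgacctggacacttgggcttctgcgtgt

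**Figure D1:**
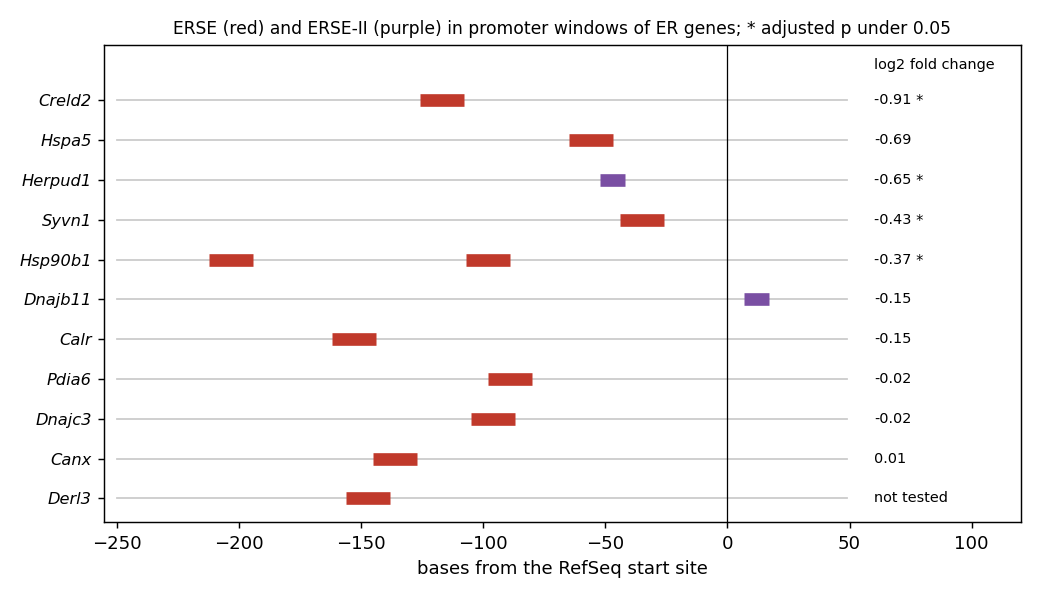
Position of ERSE (red) and ERSE-II (purple) matches in the promoter windows of 11 genes, in bases from the RefSeq start site on the horizontal axis, with the log2 fold change of each gene (ergothioneine over untreated) at the right and an asterisk where the adjusted p was under 0.05. The matches begin between 212 and 44 bases before the start, except that of Dnajb11, 7 bases after it, and the fold changes of genes with a match range from -0.91 in Creld2 to 0.01 in Canx.

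A set of ER chaperone and degradation genes was lower in ergothioneine kidneys than in untreated kidneys. Of the 36 genes 35 had enough counts to be tested, and 9 of these fell while 0 rose (edgeR's quasi-likelihood test, Benjamini-Hochberg adjusted p under 0.05 over all genes tested). The 9 were Herpud1, Pdia4, Creld2, Dnajb9, Syvn1, Hsp90b1, Hyou1, Sel1l and Xbp1. The share that fell was 25.7%, while 3.57% of all genes tested fell and 3.58% rose. At an unadjusted p under 0.05, 16 of the 35 were lower and 0 higher, with 10.4% of all genes tested lower. DESeq2, which also gave a value for Derl3, called 13 of 36 lower and 4.02% of all its genes, limma-voom called 11 of 35 lower and 3.4% of all genes, and both called 0 of these genes higher. The fold changes ran from -0.94 for Manf to 0.14 for Derl1 with a median of -0.12 on the log2 scale, and 27 of the 35 lay below 0, while the median over all genes tested was -0.0031. All libraries of the groups stood apart in 15 of the 35 genes, with the ergothioneine kidneys lower in each, whereas 9.11% of all genes tested stood apart lower and 9.46% higher. The summed level of all 36 genes was 4411 to 4924 CPM in ergothioneine kidneys and 5064 to 5418 CPM in untreated kidneys. In whole kidney, fewer cells of a type and less RNA per cell cannot be told apart.

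**Figure D2:**
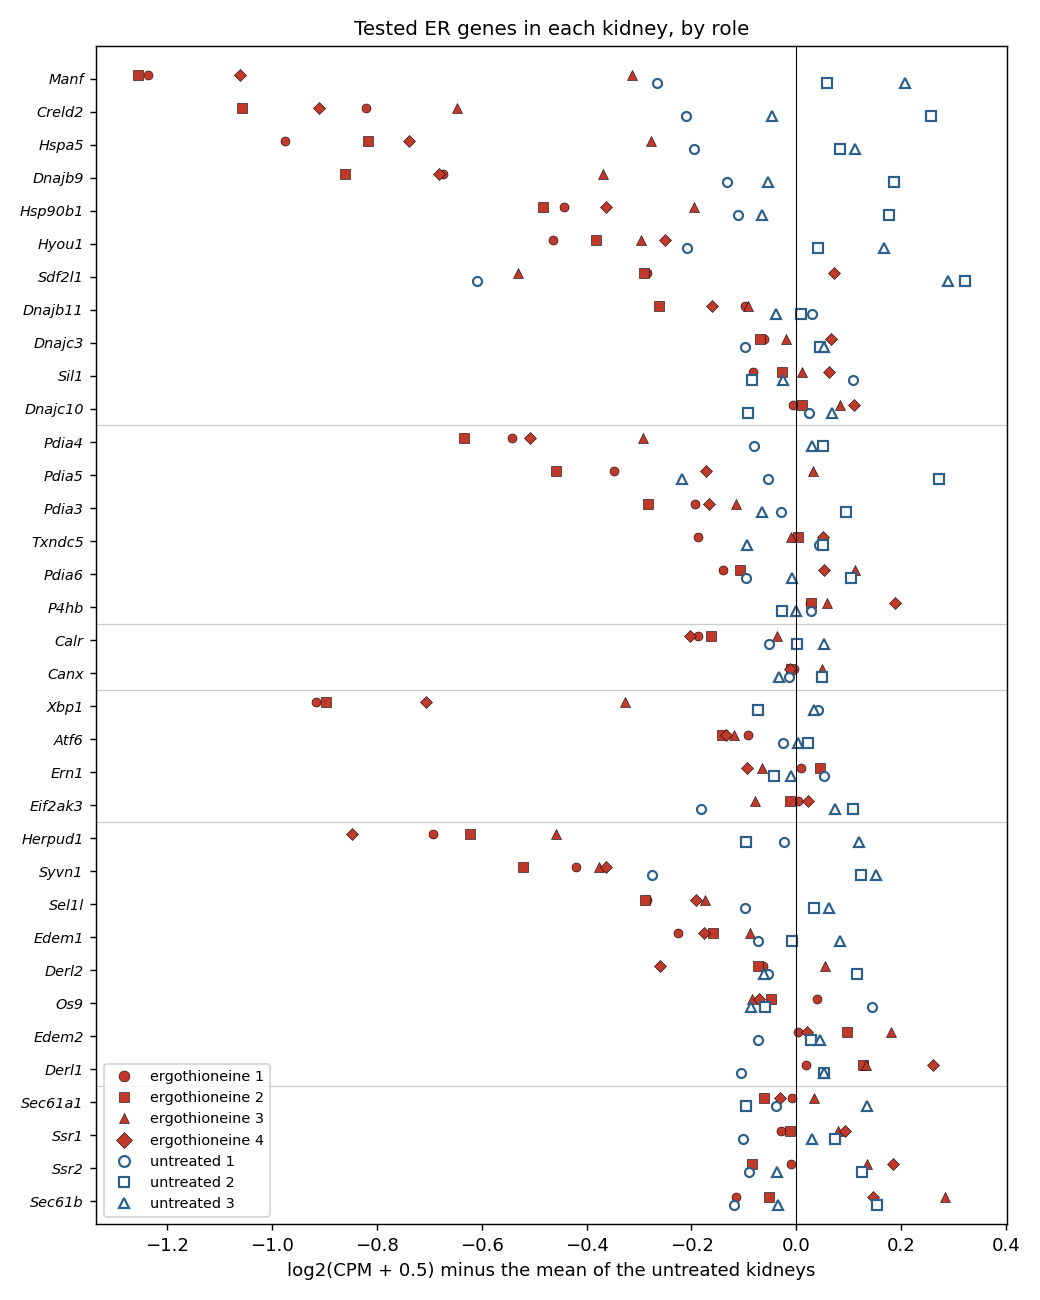
Level of each of the 35 tested genes in each kidney, as log2(CPM + 0.5) minus the mean of the untreated kidneys, with ergothioneine kidneys as filled red symbols and untreated kidneys as open blue symbols, and grey lines between the roles. The upper genes of the chaperone, isomerase, sensor and degradation blocks have all red symbols to the left of the blue ones, the translocon genes do not, and the red triangle of ergothioneine library 3 lies closest to the blue symbols in most genes that fell.

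Of the 11 genes of the HSP70 and HSP90 system, the longest of the role lists, 4 fell and 0 rose. The share that fell was 36.4%, beside 37.5% of the tested genes of ER-associated degradation and 3.57% of all genes tested. The median log2 fold change was -0.36. Hspa5 (chromosome 2, 34771970 to 34777547, GRCm38), which encodes BiP, the lumenal HSP70 chaperone that also holds the stress sensors inactive, had 228, 255, 371 and 269 CPM in the 4 ergothioneine kidneys and 393, 477 and 486 CPM in the 3 untreated kidneys. The groups did not overlap, but ergothioneine library 3 came close to the lowest untreated kidney. The log2 fold change was -0.69 ± 0.19 (SE), and Hspa5 missed the threshold (adjusted p = 0.0982 by edgeR). It passed by DESeq2 (adjusted p = 0.0146), by limma-voom (0.00743) and by edgeR without ergothioneine library 3 (7.46e-05). Of the 7 edgeR fits that left out a single library Hspa5 passed in 1, and the adjusted p in these fits ran up to 0.243.

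Hsp90b1 (chromosome 10, 86690209 to 86705509), the lumenal HSP90 chaperone that folds integrins and Toll-like receptors, had 286, 278, 340 and 303 CPM in ergothioneine kidneys and 361, 441 and 372 CPM in untreated kidneys. Every ergothioneine kidney was below every untreated one, and the gene fell by 22.8% (log2 fold change -0.37 ± 0.08, edgeR adjusted p = 0.0107). Its promoter window is the one with a pair of ERSE matches. Hyou1 (chromosome 9, 44379490 to 44392369), a large HSP70-like protein that exchanges the nucleotide of BiP, had 128, 136, 144 and 149 CPM in ergothioneine kidneys and 154, 183 and 199 CPM in untreated kidneys. The groups were separate by a narrow gap, and the fall of 21.8% (log2 fold change -0.36 ± 0.08, edgeR adjusted p = 0.0151) lost its call without untreated library 2 (0.0758) or 3 (0.0568) and without ergothioneine library 1 (0.0512) or 2 (0.0523).

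The J-domain protein Dnajb9 (chromosome 12, 44205559 to 44210326), which directs BiP to IRE1 and to degradation substrates, had 41.2, 36.2, 51.1 and 41.0 CPM in ergothioneine kidneys and 60.2, 75.2 and 63.6 CPM in untreated kidneys. The groups did not overlap, and Dnajb9 fell by 36.2% (log2 fold change -0.65 ± 0.11, edgeR adjusted p = 0.00626). Creld2 (chromosome 15, 88819646 to 88826683), a lumenal protein known to be induced by ER stress, had 6.47, 5.41, 7.36 and 6.05 CPM in ergothioneine kidneys and 10.1, 14.2 and 11.4 CPM in untreated kidneys. It showed the steepest fall among the 9 genes, 46.9% (log2 fold change -0.91 ± 0.14, edgeR adjusted p = 0.000638), at a low level in all kidneys. Manf (chromosome 9, 106838312 to 106891979), a small BiP-binding protein that is also secreted, had 18.0, 17.8, 34.6 and 20.4 CPM in ergothioneine kidneys and 35.8, 44.9 and 49.9 CPM in untreated kidneys. Ergothioneine library 3 lay near the lowest untreated kidney and far from the other treated ones, and the log2 fold change of -0.94 ± 0.29 missed the threshold (edgeR adjusted p = 0.138). Without that library Manf passed (edgeR adjusted p = 5.34e-05), as it did by DESeq2 (0.0261) and limma-voom (0.00723). Of the 7 edgeR fits that left out a single library Manf passed in 1, and the adjusted p in these fits ran up to 0.295.

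The other 5 genes of this system did not pass. Dnajb11, a J-domain partner of BiP whose window holds an ERSE-II, had a log2 fold change of -0.15, and its complex partner Sdf2l1 had -0.32 with overlapping groups (3.56 to 5.67 CPM in ergothioneine kidneys and 3.34 to 6.83 CPM in untreated kidneys). Dnajc3, Dnajc10 and the BiP nucleotide exchange factor Sil1 had values of -0.02, 0.05 and -0.01. Of the 4 J-domain genes (Dnajb9, Dnajb11, Dnajc3 and Dnajc10) 1 passed the test, Dnajb9.

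**Figure D3:**
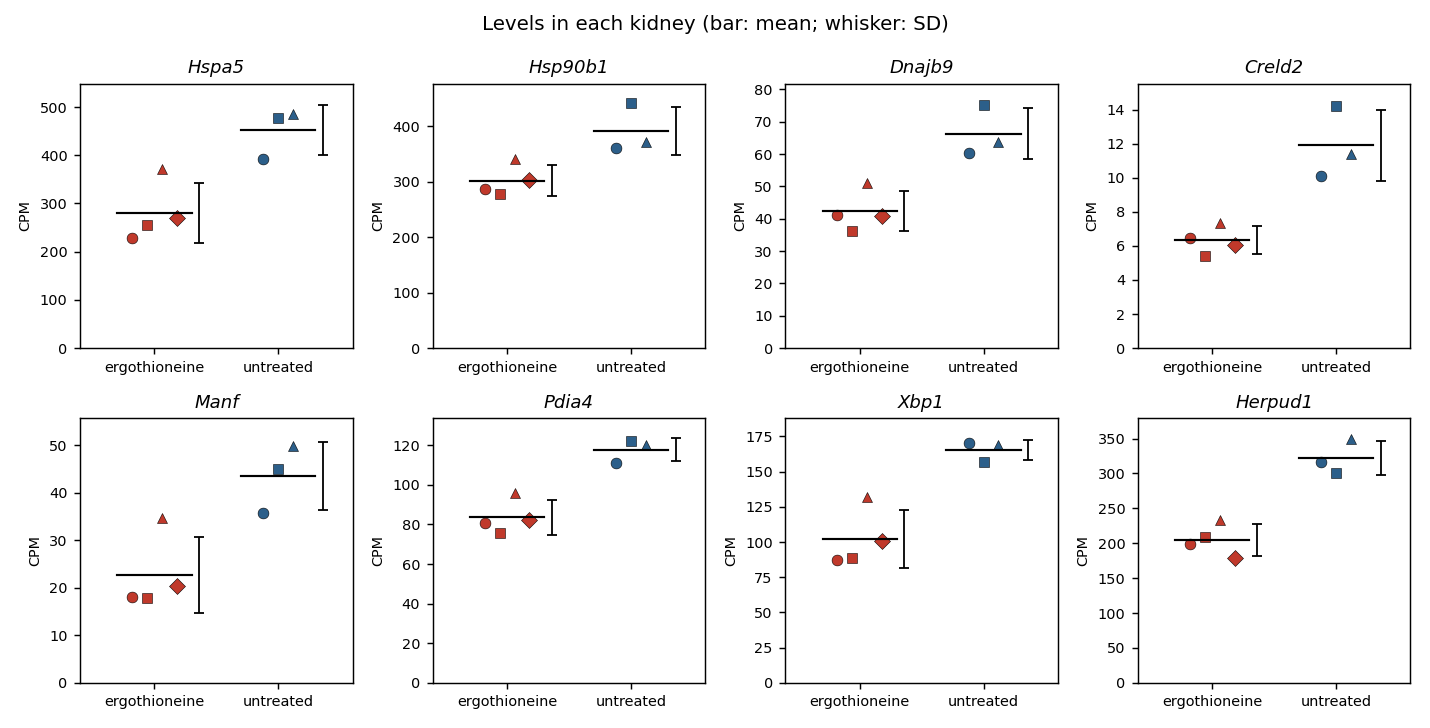
CPM of 8 genes in each kidney, with ergothioneine kidneys (red, n = 4) left of untreated kidneys (blue, n = 3), symbols for the library number within a group, a bar for the mean and a whisker for the SD. All ergothioneine kidneys lie below all untreated kidneys in the 8 genes, and ergothioneine library 3 (triangle) is the highest treated kidney in each of them, at 371 CPM for Hspa5 and 34.6 CPM for Manf.

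Of the 6 protein disulfide isomerases, which form and rearrange disulfide bonds in the lumen, 1 fell and 0 rose. That is 16.7% lower, beside 3.57% of all genes tested, and the median log2 fold change was -0.11. Pdia4 (chromosome 6, 47796141 to 47813430) had 80.5, 75.5, 95.8 and 82.4 CPM in ergothioneine kidneys and 111, 122 and 120 CPM in untreated kidneys. The untreated kidneys lay close together and above all treated ones, and Pdia4 fell by 28.9% (log2 fold change -0.49 ± 0.07, edgeR adjusted p = 0.000455). Pdia3, the isomerase that works with the lectin chaperones, had 297 ± 14.3 CPM in ergothioneine kidneys and 339 ± 20.1 CPM in untreated kidneys (SD, n = 4 and 3). Its groups did not overlap and its log2 fold change was -0.19 ± 0.06, which passed by DESeq2 (adjusted p = 0.0357) but not by edgeR (0.0686). Pdia5, Pdia6, Txndc5 and P4hb, the classical and most abundant isomerase, had log2 fold changes of -0.25, -0.02, -0.03 and 0.08, and none of these 4 passed. The lectin chaperones Calr and Canx, which retain glycoproteins until they are folded, had -0.15 and 0.01, and 0 of 2 passed (1 lower at an unadjusted p under 0.05, 0 by DESeq2 or limma-voom). Both hold an ERSE match.

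Among the sensors, the transcription factor differed between the groups and the kinases did not pass. Xbp1 (chromosome 11, 5520659 to 5525893), the mRNA that IRE1 splices into an active factor, had 87.1, 88.3, 132 and 101 CPM in ergothioneine kidneys and 170, 157 and 169 CPM in untreated kidneys. The groups were wide apart except for ergothioneine library 3, and Xbp1 fell by 38.3% (log2 fold change -0.70 ± 0.15, edgeR adjusted p = 0.0439). The call rested on the full set of 7 kidneys: it was lost without any of the libraries except ergothioneine library 3, with adjusted p from 0.0501 without ergothioneine library 1 to 0.145 without untreated library 3, and was 4.3e-06 without ergothioneine library 3. It was lost as well with no filter on low counts (0.0934) and with the library index range as a term (0.0563). Counts per gene do not separate spliced from unspliced Xbp1, so the activity of IRE1 was not measured.

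Atf6 (chromosome 1, 170704674 to 170867771), the sensor that is cleaved in the Golgi, had 88.8, 85.8, 87.1 and 86.2 CPM in ergothioneine kidneys and 93.1, 96.2 and 94.8 CPM in untreated kidneys. The groups did not overlap, yet the difference was small (log2 fold change -0.12 ± 0.05, edgeR adjusted p = 0.196). Ern1, which encodes IRE1, had 50.8, 52.1, 48.2 and 47.2 CPM in ergothioneine kidneys and 52.4, 49 and 50.1 CPM in untreated kidneys, and Eif2ak3, which encodes PERK, had 48.7, 48.1, 45.9 and 49.3 CPM in ergothioneine kidneys and 42.7, 52.3 and 51.0 CPM in untreated kidneys. Both overlapped between the groups (log2 fold changes of -0.03 ± 0.06 and -0.02 ± 0.07, edgeR adjusted p = 0.878 and 0.927).

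Of the 8 tested genes of ER-associated degradation 3 fell (37.5%, beside 3.57% of all genes tested) and 0 rose. The median log2 fold change of the 8 was -0.12. Herpud1 (chromosome 8, 94386438 to 94395377), a short-lived membrane protein that scaffolds the HRD1 ubiquitin ligase complex, had 199, 209, 234 and 179 CPM in ergothioneine kidneys and 317, 301 and 349 CPM in untreated kidneys. Even the highest treated kidney lay well below the lowest untreated one, and Herpud1 fell by 36.4% (log2 fold change -0.65 ± 0.08, edgeR adjusted p = 0.000233). It passed in each of the 7 fits that left out a single library (edgeR adjusted p up to 0.0018), as did Hsp90b1, Dnajb9, Creld2, Pdia4 and Syvn1. Syvn1 (chromosome 19, 6046576 to 6053712), the ligase HRD1 itself, had 42.9, 39.9, 44.2 and 44.6 CPM in ergothioneine kidneys and 47.5, 62.7 and 64.0 CPM in untreated kidneys. The treated kidneys lay close together, untreated library 1 stood nearest to them, and Syvn1 fell by 26.0% (log2 fold change -0.43 ± 0.09, edgeR adjusted p = 0.00982).

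Sel1l (chromosome 12, 91806043 to 91849157), the adaptor that stabilises HRD1, had 143, 143, 155 and 153 CPM in ergothioneine kidneys and 163, 179 and 183 CPM in untreated kidneys. It showed the smallest fall among the 9 genes, 15.1% (log2 fold change -0.24 ± 0.06, edgeR adjusted p = 0.0201), and lost its call without untreated library 2 (0.0548) or 3 (0.0798) and without ergothioneine library 1 (0.0802) or 2 (0.0780). Edem1, which trims mannose from misfolded glycoproteins, had 161 ± 6.32 CPM in ergothioneine kidneys and 180 ± 9.94 CPM in untreated kidneys (SD, n = 4 and 3). Its groups did not overlap, and its log2 fold change of -0.16 did not pass (edgeR adjusted p = 0.101). Edem2, the lectin Os9 and the derlins Derl1 and Derl2, which help to pull proteins out of the ER, had log2 fold changes of 0.08, -0.05, 0.14 and -0.08, and none of these 4 passed. Derl3, a derlin known from secretory cells, was too low to be tested with the filter on low counts: 8, 2, 7 and 5 counts in ergothioneine libraries and 10, 19 and 23 counts in untreated libraries. Its counts did not overlap between the groups, and it was called lower by DESeq2 (log2 fold change -1.85, adjusted p = 0.0364) and by edgeR with no filter (-1.81, adjusted p = 0.00827).

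The translocon threads new proteins into the ER. Of its channel subunits Sec61a1 and Sec61b and the associated Ssr1 and Ssr2 0 of 4 passed in either direction by edgeR, DESeq2 or limma-voom, 0 had an unadjusted p under 0.05, and their log2 fold changes lay between -0.02 and 0.07. Their summed level was 320 to 349 CPM in ergothioneine kidneys and 313 to 344 CPM in untreated kidneys.

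**Figure D4:**
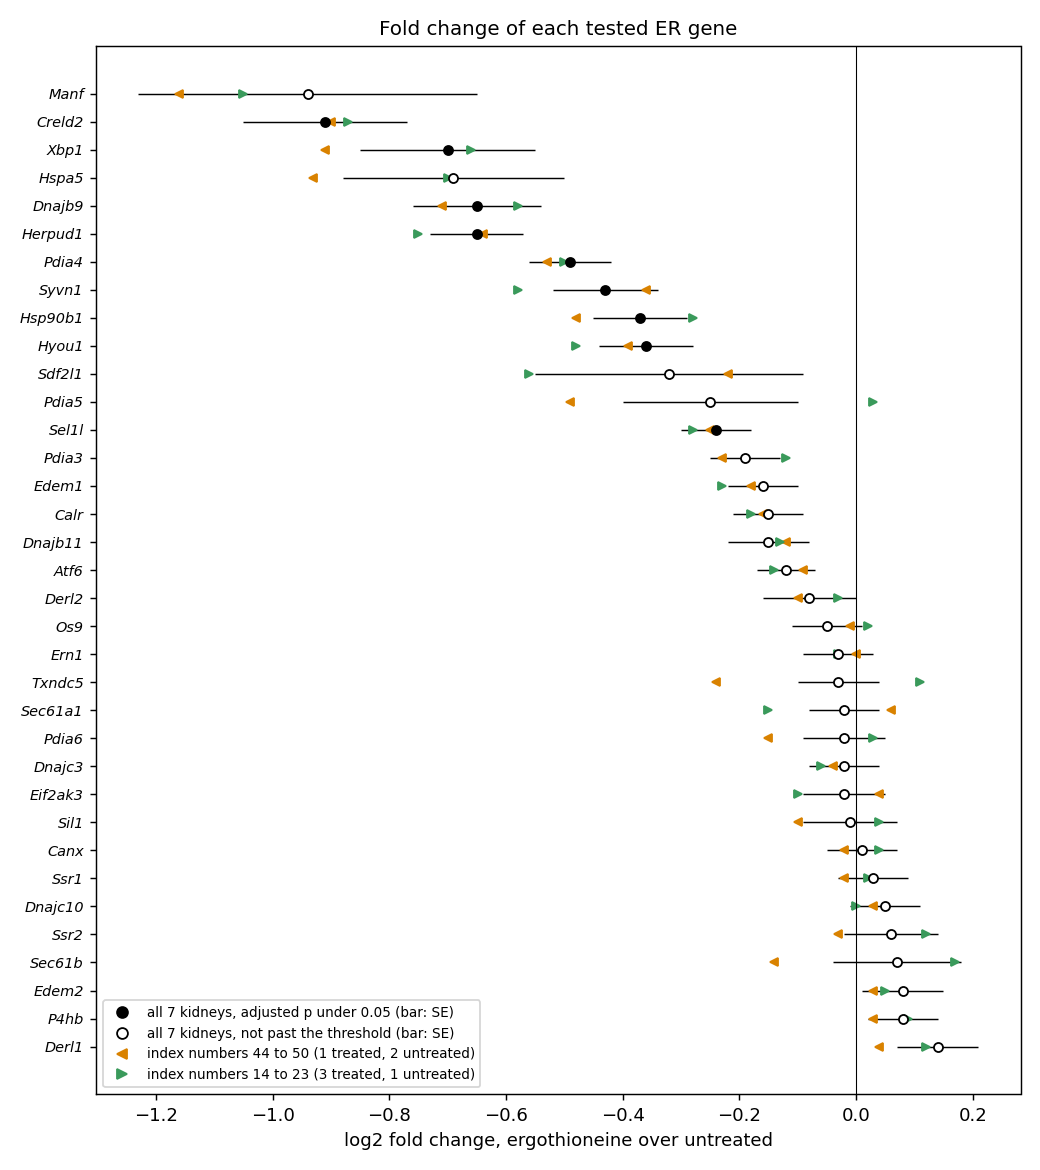
Log2 fold change of each of the 35 tested genes, ergothioneine over untreated, from all 7 kidneys (circles, filled where the adjusted p was under 0.05, bars for the SE) and within each range of library index numbers (triangles). The 9 filled genes lie between -0.91 and -0.24, and over all 35 genes the triangles lie left of 0 in 28 genes for index numbers 44 to 50 and in 22 genes for 14 to 23.

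The fall was uneven across libraries. Ergothioneine library 3 was the highest treated library in 20 of the 35 tested genes and in 7 of the 9 that fell, compared with 27.3% of all genes tested. The median of the 35 tested genes relative to the untreated mean, on the log2(CPM + 0.5) scale, was -0.14, -0.14, -0.08 and -0.14 in the 4 ergothioneine libraries and -0.07, 0.05 and 0.03 in the untreated libraries. On this measure ergothioneine library 3 stood next to untreated library 1. Without ergothioneine library 3, 11 of the tested genes fell, with 3.86% of all genes tested lower. A further fit left out untreated libraries 1 and 2, which had little short non-coding RNA. That fit has 1 untreated kidney, which is assumed to vary like the others, so only fold changes are given here. Over the 36 genes tested in it the median log2 fold change was -0.12, and 26 lay below 0. Hsp90b1 (log2 fold change -0.30), Dnajb9 (-0.59) and Xbp1 (-0.73) lost their calls in it. Their fold changes were close to those from all 7 kidneys (-0.37, -0.65 and -0.70). Within the index range from 44 to 50 (1 ergothioneine and 2 untreated libraries) 28 of 35 genes lay below 0, and within the range from 14 to 23 (3 ergothioneine and 1 untreated libraries) 22 of 35 did. The median log2 fold changes of these genes were -0.15 and -0.12. Each range leaves 1 library in a group, so only fold changes are given here, and within each range most of the 9 genes lost their calls. With the range as a term of the model 8 passed, with 3.05% of all genes tested lower.

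Levels set per transcript length (TPM rescaled without short non-coding genes) showed which of the genes carry most of this RNA. Calr was the highest at 349 TPM in ergothioneine kidneys and 401 TPM in untreated kidneys, and Derl3 the lowest at 0.450 TPM in ergothioneine kidneys and 1.65 TPM in untreated kidneys. Herpud1 averaged 203 TPM in ergothioneine kidneys and 322 TPM in untreated kidneys, with ranks of 4 and 2 among the 36 genes. Hspa5 averaged 192 TPM in ergothioneine kidneys and 308 TPM in untreated kidneys, and P4hb 321 TPM in ergothioneine kidneys and 303 TPM in untreated kidneys. The genes that fell thus spanned the range of levels, down to Creld2 at 9.13 TPM in ergothioneine kidneys and 17.2 TPM in untreated kidneys.

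Genes that fell were found both with and without an ERSE or ERSE-II. Of the 10 tested genes with either motif 4 fell (Herpud1, Creld2, Syvn1 and Hsp90b1) and 0 rose, with a median log2 fold change of -0.26, and of the 18 tested genes with a window but neither motif 4 fell (Pdia4, Dnajb9, Xbp1 and Sel1l), with a median of -0.06. Hyou1 fell and is among the 7 genes for which the RefSeq table held no window. The difference between these groups was not tested. Calr, Canx, Dnajc3 and Pdia6 hold the same fixed bases as Creld2 and Syvn1 and had log2 fold changes between -0.15 and 0.01. Outside the 36 genes, 28 genes of the table held an ERSE or ERSE-II and 16 were tested. Of the 16, 2 fell (12.5%, beside 3.57% of all genes tested) and 0 rose. These were Alg12, a mannosyltransferase of N-glycan assembly (log2 fold change -0.48 ± 0.10, edgeR adjusted p = 0.00814), and Spats2l (-0.54 ± 0.12, adjusted p = 0.0128). Alg12 (chromosome 15, 88805244 to 88819318, minus strand) and Creld2 (plus strand) start head to head, 328 bases apart. The ERSE printed for Creld2 thus lies between both genes, and the match counted for Alg12 may be the same site. Alg12 had 9.82, 10.7, 10.1 and 10.9 CPM in ergothioneine kidneys and 15.7, 13.3 and 14.5 CPM in untreated kidneys.

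In neighbouring pathways of the ER the shares that fell, 3.45%, 0%, 3.12% and 3.45% in the order given here, were near or below the 3.57% of all genes tested. Among 29 tested further lumenal folding partners 1 fell, the thioredoxin-like Txndc11 (log2 fold change -0.32, edgeR adjusted p = 0.00773), and 0 rose. Among 29 further genes of ER-associated degradation 0 passed by edgeR, DESeq2 or limma-voom, with 1 lower and 1 higher at an unadjusted p under 0.05. Among 32 genes of translocation, signal peptide cleavage and N-glycosylation 1 fell, the signal peptidase subunit Sec11a (-0.42, adjusted p = 0.00440), and among 29 genes of COPII and ER-to-Golgi transport 1 fell, the coat subunit Sec24a (-0.24, adjusted p = 0.0175, lost without untreated library 1 and ergothioneine libraries 1 and 2). The medians of these 4 lists were -0.02, -0.04, 0.03 and 0.00, and 0 of their genes rose.

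The PERK and ATF4 branch showed no common direction. Of 17 tested genes 1 fell and 2 rose, with a median of 0.01. The share that fell was 5.88%, while 3.57% of all genes tested fell and 3.58% rose. Psat1, an enzyme of serine synthesis and target of ATF4, had 38.3, 35.2, 35.6 and 43.9 CPM in ergothioneine kidneys and 24.1, 21.1 and 22.6 CPM in untreated kidneys (log2 fold change 0.76 ± 0.09, edgeR adjusted p = 4.56e-05). Ddit4, a stress-induced inhibitor of the mTOR pathway, rose as well (0.57, adjusted p = 0.0226, lost without untreated library 2 or 3 and without ergothioneine library 1 or 4), and Ppp1r15b, a cofactor of the phosphatase that reverses the action of PERK, fell (-0.25, adjusted p = 0.0111, lost without untreated library 3 and without ergothioneine library 1). Atf4 itself had a log2 fold change of -0.08 (adjusted p = 0.669). Ddit3, which encodes CHOP and was named after its values were seen, had 2.04, 2.28, 4.62 and 2.62 CPM in ergothioneine kidneys and 4.76, 4.76 and 5.51 CPM in untreated kidneys, and missed the threshold (-0.80 ± 0.24, adjusted p = 0.0552). Of 19 other sensors, proteases and factors of the response 1 fell (5.26%) and 3 rose. Nfya, a subunit of the factor that binds CCAAT, fell (-0.30), and the cell death effector Bax (0.38), the stress kinase gene Map3k5 (0.24) and the ER-anchored factor Creb3l1 (0.74) rose. Each of these 4 calls was lost without 4 or 5 of the single libraries.

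**Figure D5:**
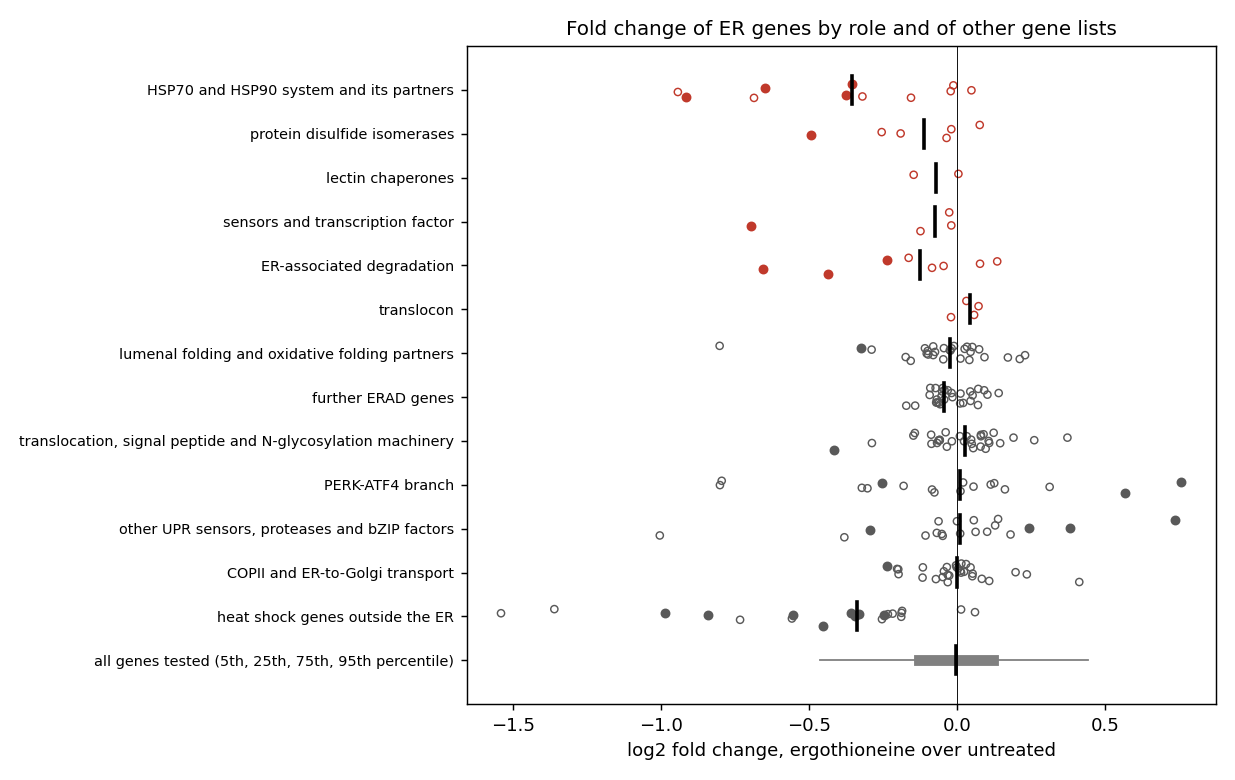
Log2 fold change (ergothioneine over untreated) of the 36 genes by role (red) and of 7 other gene lists (grey), each circle a tested gene, filled where the adjusted p was under 0.05, with a black bar at the median and at the bottom the percentiles of all genes tested. The HSP70 and HSP90 row and the row of heat shock genes outside the ER have the lowest medians, -0.36 and -0.34, while the medians of the other grey lists lie between -0.04 and 0.03.

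Chaperone genes outside the ER were counted as well. Of 20 tested heat shock genes, which are cytosolic or nuclear except the mitochondrial Hspd1 and Hspe1, 8 fell and 0 rose, with a median of -0.34. The share that fell was 40%, beside 3.57% of all genes tested, and leaving out single libraries gave 3 to 13 lower. Hspa8, the constitutive HSP70 of the cytosol, had 1411, 1294, 1734 and 1280 CPM in ergothioneine kidneys and 2108, 2250 and 1936 CPM in untreated kidneys (log2 fold change -0.55 ± 0.10, edgeR adjusted p = 0.00327). Here too ergothioneine library 3 was the highest treated library. The co-chaperone Stip1 (-0.45), the small heat shock protein Hspb1 (-0.98, adjusted p = 0.0102, but 0.0503 without untreated library 2) and Hspa4l (-0.33, lost without untreated library 2 or ergothioneine library 2) were also among the 8.

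Other measures moved with the same groups, and their part in the values above was not tested. Of 16 tested circadian clock genes 11 fell and 3 rose, with Per2 at 14.4 to 21.2 CPM in ergothioneine kidneys and 81.5 to 87.6 CPM in untreated kidneys and Arntl at 10.8 to 12.2 CPM in ergothioneine kidneys and 1.22 to 2.21 CPM in untreated kidneys. Hour of collection and treatment cannot be told apart where the labels give no hour. Plasma cells are rich in many of the 36 genes, and of 12 listed plasma cell markers 6 were tested, 1 fell (Jchain, log2 fold change -1.52, adjusted p = 0.00626) and 0 rose. The other tested markers did not pass: Igkc (-1.99), Ighm (-2.67) and Prdm1 (-0.38) lay below 0, and Sdc1 (0.24) and Irf4 (0.23) above 0. The 12 listed markers summed to 29.8 to 45.0 CPM in ergothioneine kidneys and 67.0 to 136 CPM in untreated kidneys. This sum includes immunoglobulin genes that share reads between copies. The defining marker Tnfrsf17 was at 0 in all libraries but untreated library 2. Adipocyte markers summed to 12.9 to 21.8 CPM in ergothioneine kidneys and 53.9 to 65.9 CPM in untreated kidneys, with 6 of 7 tested lower. Proximal tubule markers summed to 30896 to 34716 CPM in ergothioneine kidneys and 31581 to 34090 CPM in untreated kidneys, which overlapped, with 1 of 12 lower. Of the markers of the other 6 cell types, the collecting duct had 3 of 9 higher, the thick ascending limb 2 of 7 higher, podocytes 1 of 6 and fibroblasts 1 of 8 higher, macrophages 1 of 8 lower, and endothelial cells 0 of 7 in either direction (0 at an unadjusted p under 0.05 by edgeR, and 0 called by DESeq2 or limma-voom). For comparison with all of these lists, 3.57% of all genes tested fell and 3.58% rose.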

How the data were processed

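RNA was measured in 7 kidneys (n = 4 ergothioneine, n = 3 untreated). Per the labels' protocols, ribosomal RNA was depleted from total RNA and stranded libraries were ligated. The authors deposited expected counts and TPM per Ensembl gene. The submitters' processing notes name STAR 2.7.10a, RSEM 1.3.1 and Salmon 1.10.1 among other tools, with builds GRCm38 and mm10 and no settings. Of the deposited expected counts 3.61% of all values and 8.37% of those above 0 differed from a whole number by more than 1e-06, so reads that match several similar genes had been divided among them. The deposited TPM values divide by transcript length and sum short RNAs with the rest, so CPM was used for comparisons and TPM, rescaled without non-coding genes under 400 nt, for levels between genes.

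Symbols came from GENCODE M21 (45143 of 45706 identifiers). Expected counts were rounded and tested in R 4.3.3 with edgeR 4.0.16 (filterByExpr, TMM, robust quasi-likelihood F test, no covariate), adjusted over 15399 genes by Benjamini-Hochberg at 0.05. CPM uses TMM library sizes. The median SE was 0.11 log2 units. Pairs of kidneys in the same group gave a chi-square of 7.96 to 27.5 per degree of freedom, so none was a copy. P-values set the difference between the groups against the spread between these kidneys, which the test estimates with information shared across genes. The test was checked on 5 sets of simulated counts, in which 200 genes drawn from all genes tested were changed. It recovered 26.4% of 1.25-fold changes, 63.6% of 1.5-fold, 77.2% of 2-fold and 92.0% of 4-fold changes. In the data 1102 genes passed, and the drawn genes were of all levels, so these shares do not give the rate for the ER genes. A gene with a small change that did not pass may therefore still differ. Alternatives were DESeq2 1.42.0, limma 3.58.1 (voom, and trend on log2(TPM + 1) and log2(TPM + 0.1)), other scalings and filters, left-out libraries, a replicate block and the library index range. A motif match meant identity of all fixed bases.

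The genes, lists and rules were chosen with earlier results of these data known. Values per kidney are given for genes past the threshold and for Hspa5, Atf6, Ern1 and Eif2ak3; from other lists at most 4 genes past the threshold were named, by smallest p. Manf, Derl3, Pdia3, Edem1, Alg12, Spats2l, Ddit3, Atf4 and marker genes were given after their values were seen.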

Additional observations from a re-analysis of the deposited data

Results flagged for a closer look

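Of 56 genes checked for a library far from the others of its group, 2 stood out, both ER genes and both in ergothioneine library 3. Chance alone flags about 1 in 20 groups. Manf was at 34.6 CPM in ergothioneine library 3, with the other ergothioneine libraries at 17.8 to 20.4 CPM, a gap of 0.844 of the range of the ergothioneine kidneys. Canx was at 550 CPM in ergothioneine library 3, with the other ergothioneine libraries at 527 to 530 CPM, a gap of 0.875 of that range.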

How the results depend on the processing

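The median log2 fold change of the tested ER genes stayed below 0 under every alternative of scaling, filter, tool, covariate and left-out library, and 0 of them rose under any. The number that fell ranged from 6 to 11 when single libraries were left out, with 2.21% to 3.86% of all genes tested lower. It was 4 on log2(TPM + 1) rescaled without short non-coding genes, with 0.84% of all genes tested lower. At an adjusted p under 0.01 it was 5. Smaller fits have fewer samples, and otherwise the cause was not tested. On the deposited TPM the median was -0.48 with a pseudocount of 1 and -0.49 with 0.1, where the median of all genes tested was itself -0.33 and -0.37. On those scales Bax was -0.0043 and -0.0038 and Map3k5 -0.08 and -0.09, above that median, and after rescaling to leave the short RNAs out Bax was 0.36 and Map3k5 0.28. Leaving out single libraries gave medians from -0.14 to -0.10. Of the 9 genes that fell, 9 were called by DESeq2, limma-voom and all scalings and 6 without untreated library 2 or 3 or ergothioneine library 1 or 2. Signs of genes passing in neither fit changed in up to 8 genes per alternative. With the replicate block 11 fell, with 2.68% of all genes tested lower. Same-numbered kidneys deviated together with correlations of 0.045, -0.083 and -0.002, so the numbers were not taken as a pairing. At a depth of 14843899 to 19791575 counts, Derl3 was too low to pass the filter on low counts of the main fit.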
